A study of Homo sapiens with 6 samples.

Results

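Peroxisomes are small organelles bounded by 1 membrane that import folded enzymes from the cytosol. The genes described here are 32 genes of peroxisome assembly and peroxisomal lipid metabolism, out of 33539 genes in the deposited table, picked by gene name. They comprise 12 peroxins (PEX genes, which build the organelle), 2 ABC transporter genes and 18 enzyme genes. The group was proposed with the fold changes of these same libraries known, so the differences between the groups given below describe the genes and no test rests on them. All 32 genes carry the peroxisome term of the pathway annotation in the table, and all 32 passed the filter on low values.

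Poly(A) RNA was sequenced from 8505C cells, a long-established human line derived from anaplastic (undifferentiated) thyroid carcinoma. The siPOLR1F group (3 libraries) had received an siRNA against POLR1F for 24 h, and the NC group (3 libraries) a control siRNA for the same 24 h. POLR1F encodes a subunit of RNA polymerase I, which transcribes the ribosomal RNA genes, and the study asked which genes respond to its loss. Both groups were the same unmodified line grown in RPMI-1640 medium with fetal bovine serum, and all 6 libraries carry the same batch label. Neither the siRNA sequences nor any statement that the 3 libraries of a group were separate cultures is in the labels. The spread that the p-values measure is that among these libraries and may be technical.

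Proteins of the peroxisome matrix are made in the cytosol and carried in by receptors. PEX5 reads the type 1 targeting signal at the end of a protein, PEX7 reads a type 2 signal near its start, and PEX13 and PEX14 form the docking site in the membrane. Inside, very long and branched fatty acids and bile acid precursors are shortened by beta-oxidation, phytanic acid is broken down by alpha-oxidation, the first steps of ether lipid synthesis take place, and catalase removes the hydrogen peroxide that the oxidases make. Loss of peroxins in people causes the Zellweger spectrum of disorders.

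The type 1 signal is shown at its source, the last codons of the coding sequence, because it is what links the enzymes to the import genes among the 32. The 27 coding bases before the stop codon are printed 5′ to 3′ on the coding strand, from GENCODE release 29 on GRCh38, with the last 9 bases, the codons of the targeting tripeptide, in capitals. The tripeptide searched was serine, alanine or cysteine, then lysine, arginine or histidine, then leucine or methionine. It ended 8 of the 32 genes (25%), against 50 of 11235 tested genes with a chosen transcript (0.445%).
HSD17B4 (chr5:119541965-119541991, plus strand): atgattcttaaagactacGCCAAGCTC
SCP2 (chr1:53050675-53050701, plus strand): cagcttcagccaggcaacGCTAAGCTC
ACOX2 (chr3:58505227-58505253, minus strand): cttttacaaagttggagaTCCAAGCTA
ACOX3 (chr4:8366964-8366990, minus strand): gtcataggaagtctgaaaTCGAAGCTC
EHHADH (chr3:185192229-185192255, minus strand): ttggcaggctcccctagcAGTAAATTG
GNPAT (chr1:231277513-231277539, plus strand): ataggaaaaccagccactGCAAAACTT
CAT (chr11:34471404-34471430, plus strand): ttggcggcaagggagaagGCAAATCTG
PECR and ACOT8 also end in a matching tripeptide. CAT, shown for contrast, ends in a variant that the search did not match, although PEX5 is known to import catalase. Of the 3 genes shown whose RNA passed the threshold of the comparison below, HSD17B4 and SCP2 were lower and ACOX2 was higher in siPOLR1F, so a shared signal did not go with a shared direction.

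The total count of a library lay between 60576788 and 63038378. POLR1F (ENSG00000105849, chromosome 7, 19695461 to 19709037, minus strand) had 575, 395 and 413 counts in the siPOLR1F libraries, against 2446, 2246 and 2095 counts in the NC libraries. Its level was 1.67 ± 0.368 FPKM in siPOLR1F and 8.28 ± 0.592 FPKM in NC (SD, n = 3 each), a log2 fold change of -2.30 with an SE of 0.15 and an edgeR adjusted p of 9.76e-05. FPKM is the count divided by gene length and by library size, and fold changes are siPOLR1F over NC throughout. The exact two-sided permutation p for POLR1F was 0.1, the smallest that 3 against 3 libraries allow. Of 11 markers of the line, VIM averaged 674 FPKM in siPOLR1F and 671 in NC, the thyroid lineage factor NKX2-1 averaged 27.5 FPKM in siPOLR1F and 45.2 in NC, and the thyroid differentiation genes TG, TSHR and SLC5A5 were each under 0.02 FPKM in both groups. Summed over 8 markers of blood, vessel and stromal cells, the level was 14.8 to 23.6 FPKM in siPOLR1F and 16.8 to 20.8 FPKM in NC. The leukocyte marker PTPRC averaged 0.00302 FPKM in siPOLR1F and 0.00327 FPKM in NC. CDH5, an endothelial marker in this list, averaged 2.72 FPKM in siPOLR1F and 5.65 FPKM in NC. The endothelial markers PECAM1 (0.413 FPKM in siPOLR1F and 0.292 in NC) and VWF (0.441 FPKM in siPOLR1F and 0.198 in NC) had higher means in siPOLR1F. The part of such cells in the results below was not tested.

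Of the 32 genes, 3 were lower and 2 higher in siPOLR1F, and the others did not pass the threshold. In 23 of the 32 the log2 fold change was negative, with a median of -0.13, against 52.5% of all 13564 genes tested, whose median was -0.01. Without NC replicate 1 the median of the 32 was -0.08, with 22 negative. The threshold was an adjusted p of 0.05 in the edgeR quasi-likelihood fit over all tested genes, and 5 of the 32 passed it (background over all genes 17.2%). PEX2, HSD17B4 and SCP2 were lower (background 6.94%), and PEX14 and ACOX2 were higher (background 10.3%). In 8 genes all 3 siPOLR1F libraries lay below all 3 NC libraries (background 19%), namely PEX2, ABCD4, HSD17B4, SCP2, CAT, HACL1, CROT and PECR. In 3 genes, PEX14, ACOX2 and ACOX3, they lay above (background 18.9%). The 32 genes were proposed with this comparison known, so nothing is read from these counts against the background. Among all tested genes 1391 were higher and 942 lower. With upper-quartile scaling these counts were 1114 and 1475, and the median of the 32 was -0.18 with 26 negative, against a median of -0.06 over all genes. In bulk RNA a lower level in every cell and a loss from some of the cells cannot be told apart.

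**Figure D1:**
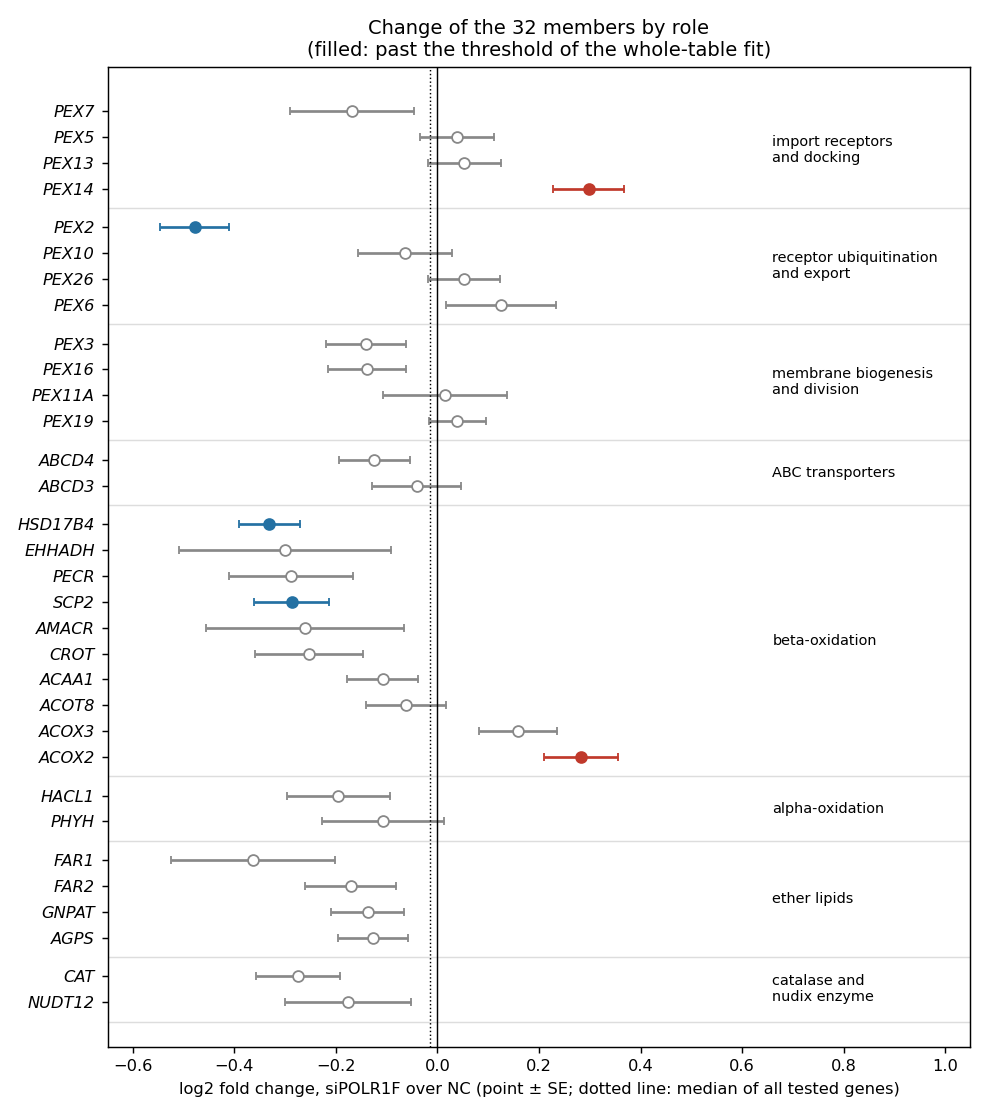
Log2 fold change, siPOLR1F over NC, of the 32 genes grouped by role; points are edgeR estimates, bars ± 1 SE, filled points passed the threshold (blue lower, red higher in siPOLR1F) and the dotted line is the median of all tested genes. The peroxins and the beta-oxidation genes lie on both sides of 0, whereas all ABC transporter, alpha-oxidation, ether lipid and catalase group genes lie below it.

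The import receptors and the docking site showed 1 gene beyond the threshold. PEX14 (ENSG00000142655, chromosome 1, 10472288 to 10630758), the docking protein that first binds the loaded receptor, had 14.2, 14.2 and 14.5 FPKM in the siPOLR1F libraries, against 10.9, 11.7 and 12.4 FPKM in the NC libraries. The groups did not overlap, and its log2 fold change of 0.30 (SE 0.07) had an edgeR adjusted p of 0.0222. The call was lost without any 1 of the siPOLR1F libraries, with an edgeR adjusted p from 0.0585 to 0.0795. PEX14 overlaps DFFA on the opposite strand, which averaged 8834 counts against 2644 for PEX14 and was itself higher (log2 fold change 0.24). No source used here gives the strand setting of the counting, so reads of both genes may be divided between them. In all, 14 of the 32 genes overlap another gene with at least 20 counts on average.

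PEX5, the receptor for the type 1 signal, had 5.68, 6.29 and 6.29 FPKM in siPOLR1F, against 6.11, 5.63 and 6.14 FPKM in NC. These ranges overlapped, and the log2 fold change was 0.04 (SE 0.07). PEX13, the partner of PEX14, had a log2 fold change of 0.05 and PEX7 of -0.17, and both overlapped between groups. Within the docking pair, PEX14 made up 73.9%, 73.0% and 75.5% of the summed FPKM in siPOLR1F, against 69.3%, 70.0% and 72.9% in NC. The shares did not overlap either, although the lowest siPOLR1F share lay only just above the highest NC share.

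Of the genes that recycle the receptor, PEX2 alone differed beyond the threshold. PEX2 (ENSG00000164751) encodes 1 of the 3 RING subunits of the ubiquitin ligase that marks PEX5 for export. Its RNA had 5.24, 5.31 and 5.37 FPKM in siPOLR1F, against 7.69, 7.02 and 7.59 FPKM in NC. The siPOLR1F libraries lay close together and well below every NC library, and the level fell by 28.2%, a log2 fold change of -0.48 (SE 0.07). PEX2 passed in each of its 15 alternative fits, with an edgeR adjusted p of 0.00292 in the fit reported and of up to 0.0166 with a library left out. PEX10, another RING subunit, had 4.28, 4.38 and 4.42 FPKM in siPOLR1F, against 5.09, 4.44 and 4.21 FPKM in NC. Its groups overlapped, with a log2 fold change of -0.06, or of 0.02 without NC replicate 1. PEX10 overlaps RER1 on the opposite strand, which averaged 9080 counts against 1176 for PEX10 and did not pass (log2 fold change -0.08). PEX6, part of the ATPase that pulls the receptor out of the membrane, had a log2 fold change of 0.13, and PEX26, its membrane anchor, of 0.05. Both overlapped between the groups.

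The genes that make the membrane or divide the organelle did not pass the threshold by edgeR or DESeq2, and none of the 4 had an unadjusted p below 0.05. PEX19, the cytosolic chaperone of peroxisomal membrane proteins, had 11.2, 11.5 and 11.4 FPKM in siPOLR1F, against 11.01, 11.1 and 11.3 FPKM in NC. PEX3, its docking factor in the membrane, had 8.62, 9.39 and 9.83 FPKM in siPOLR1F, against 10.2, 10.96 and 9.67 FPKM in NC. Both genes overlapped between the groups, with log2 fold changes of 0.04 (SE 0.06) and -0.14 (SE 0.08). PEX16, which recruits PEX3, had a log2 fold change of -0.14, and PEX11A, which elongates the membrane before division, of 0.02. PEX5, PEX19 and PEX11A were at -0.012, -0.010 and -0.034 with upper-quartile scaling.

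Neither ABC transporter gene passed, by edgeR or DESeq2 or at an unadjusted p below 0.05. ABCD3, which encodes the membrane protein that takes branched fatty acids and bile acid precursors into the peroxisome, had 7.81, 7.10 and 6.91 FPKM in siPOLR1F, against 8.36, 7.21 and 6.99 FPKM in NC. Its log2 fold change was -0.04 (SE 0.09), and 0.04 without NC replicate 1. ABCD4 had 2.53, 2.75 and 2.81 FPKM in siPOLR1F, against 2.89, 2.92 and 3.06 FPKM in NC. Its siPOLR1F libraries all lay below NC, by a log2 fold change of -0.12 (SE 0.07) that did not pass. ABCD4 is grouped here by sequence family, and its protein is known for vitamin B12 transport in lysosomes.

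Of the 10 beta-oxidation genes 8 were negative, with a median of -0.26, or of -0.11 without NC replicate 1. HSD17B4 (ENSG00000133835, chromosome 5, 119452465 to 119637199) encodes the D-bifunctional protein, which carries out the middle steps for very long, branched and bile acid chains. Its RNA had 3.33, 3.57 and 3.53 FPKM in siPOLR1F, against 4.65, 4.27 and 4.26 FPKM in NC. The groups did not overlap, with a log2 fold change of -0.33 (SE 0.06) at an edgeR adjusted p of 0.00825, and the gene passed in all 14 alternatives that gave it a value. SCP2 (ENSG00000116171, chromosome 1, 52927276 to 53051698) encodes the thiolase of the last step for branched chains and, from another start, sterol carrier protein 2. It had 6.93, 6.64 and 7.13 FPKM in siPOLR1F, against 9.20, 7.92 and 8.28 FPKM in NC. The groups did not overlap, and the log2 fold change was -0.29 (SE 0.07) at an edgeR adjusted p of 0.0306. The SCP2 call was lost without NC replicate 1, NC replicate 3 or any 1 of the siPOLR1F libraries (edgeR adjusted p from 0.0527 to 0.104).

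ACOX2 (ENSG00000168306, chromosome 3, 58505136 to 58537190), the oxidase that opens the beta-oxidation of branched chains and bile acid intermediates, went the other way. It had 5.32, 5.32 and 5.07 FPKM in siPOLR1F, against 4.16, 4.32 and 4.49 FPKM in NC. Every siPOLR1F library lay above every NC library, by 0.28 on the log2 scale (SE 0.07), at an edgeR adjusted p of 0.0326. The call was lost when any 1 of the 6 libraries was left out (edgeR adjusted p from 0.0702 to 0.108), so it is the least stable of the 5. ACOX3, which oxidises branched chains, was also above NC in every library, with a log2 fold change of 0.16 (SE 0.08) that did not pass.

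The other 6 beta-oxidation genes were lower on average without passing. EHHADH, the L-bifunctional enzyme, had a log2 fold change of -0.30 with a wide SE of 0.21, and AMACR, the racemase that readies 2-methyl chains for oxidation, one of -0.26 (SE 0.20). Without NC replicate 1 these were -0.07 for EHHADH and -0.10 for AMACR, and without NC replicate 2 they were -0.47 and -0.43. PECR, an enoyl-CoA reductase (-0.29), and CROT, which makes carnitine esters of shortened chains (-0.25), lay below NC in every library. ACOT8, a thioesterase that releases shortened acids, had 5.08, 5.66 and 5.27 FPKM in siPOLR1F, against 5.60, 5.24 and 5.96 FPKM in NC. It overlapped between the groups (-0.06), as did ACAA1, the thiolase for straight chains (-0.11). PECR overlaps MREG on the same strand and ACOT8 overlaps SNX21 on the opposite strand, each with similar counts to its partner.

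**Figure D2:**
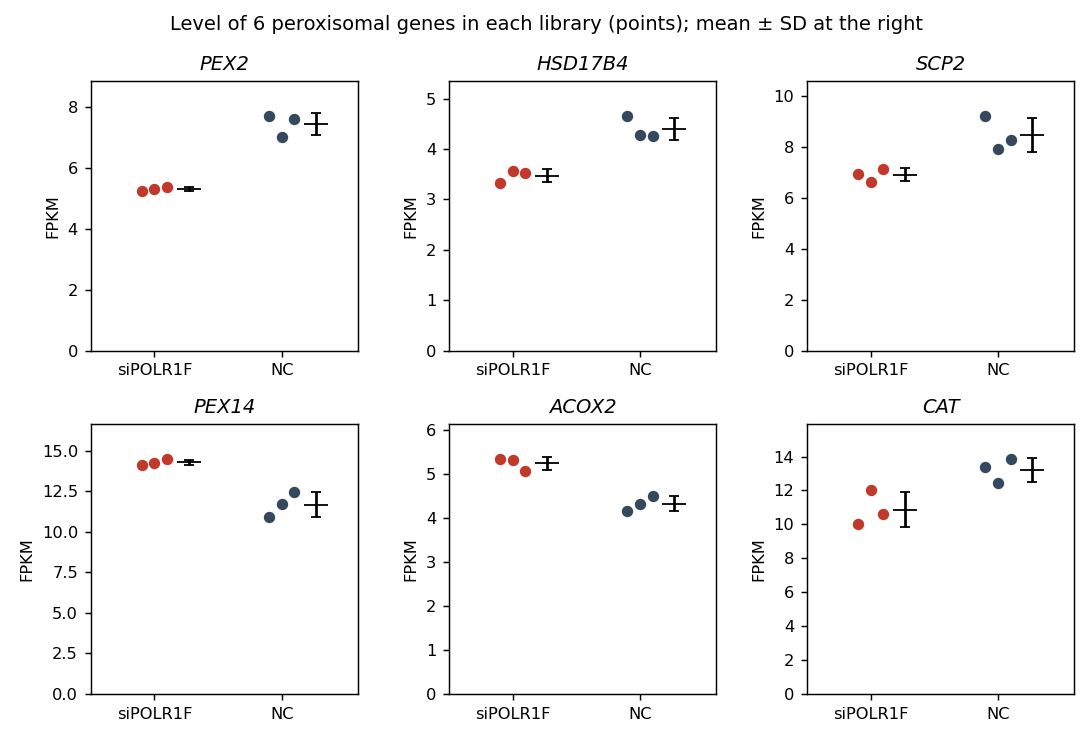
FPKM of 6 genes in each library (points; red siPOLR1F, dark NC), with the mean ± SD of 3 libraries beside them. The siPOLR1F points of PEX2, HSD17B4, SCP2 and CAT all lie below the NC points, and those of PEX14 and ACOX2 above them.

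The 2 alpha-oxidation genes were both negative. HACL1, the lyase that removes 1 carbon from the hydroxylated chain, had 8.62, 7.50 and 8.30 FPKM in siPOLR1F, against 10.6, 8.83 and 8.67 FPKM in NC. Its groups did not overlap, but the gap was narrow and the log2 fold change of -0.20 (SE 0.10) did not pass. HACL1 overlaps BTD on the opposite strand, which was lower itself (log2 fold change -0.37). PHYH, the phytanoyl-CoA hydroxylase whose loss causes Refsum disease, had 2.76, 2.88 and 2.43 FPKM in siPOLR1F, against 3.19, 2.74 and 2.80 FPKM in NC. It overlapped between the groups, with a log2 fold change of -0.11 (SE 0.12).

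All 4 ether lipid genes were negative, with a median of -0.15, and none of the 4 passed in the edgeR fit reported or with DESeq2, nor had an unadjusted p below 0.05 in that edgeR fit. GNPAT, which starts ether lipid synthesis by acylating dihydroxyacetone phosphate, had 12.0, 13.8 and 13.3 FPKM in siPOLR1F, against 14.8, 13.8 and 14.6 FPKM in NC. AGPS, which puts in the ether bond, had a log2 fold change of -0.13 (SE 0.07), close to that of GNPAT at -0.14 (SE 0.07). FAR1, the reductase that supplies the fatty alcohol, had 11.2, 8.98 and 8.34 FPKM in siPOLR1F, against 14.9, 12.3 and 9.67 FPKM in NC. The groups overlapped and the libraries of each group differed widely, and the log2 fold change of -0.36 (SE 0.16) did not pass (edgeR adjusted p = 0.155). FAR2, its homologue, had a log2 fold change of -0.17 (SE 0.09). The balance of FAR1 and FAR2, and of GNPAT and AGPS, overlapped between the groups.

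Catalase was the gene nearest to the threshold among those that did not pass. CAT (ENSG00000121691, chromosome 11, 34438934 to 34472060) had 10.0, 12.0 and 10.6 FPKM in siPOLR1F, against 13.4, 12.4 and 13.8 FPKM in NC. All siPOLR1F libraries lay below NC, and the log2 fold change of -0.27 (SE 0.08) had an edgeR adjusted p of 0.0538. It passed with DESeq2 (adjusted p = 0.0157) and in edgeR with upper-quartile scaling (0.0323), with library size alone (0.0487), with an FPKM filter of 5 (0.0318) and without siPOLR1F replicate 2, the highest of its group (0.0429). NUDT12, a nudix hydrolase that acts on NADH and is no lipid enzyme, had 4.90, 4.55 and 3.87 FPKM in siPOLR1F, against 5.81, 4.82 and 4.50 FPKM in NC. Its groups overlapped, with a log2 fold change of -0.18 (SE 0.12).

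The 18 enzyme genes summed to 94.9, 96.4 and 93.1 FPKM in siPOLR1F, against 115, 103 and 105 FPKM in NC, without overlap. Of these genes 16 were negative, with a median of -0.19. The 12 peroxins summed to 71.9, 74.6 and 75.5 FPKM in siPOLR1F, against 74.9, 74.3 and 75.8 FPKM in NC, which overlapped, with 5 negative and a median of 0.03. NC replicate 1 stood apart, as it held the highest level of the 3 NC libraries in 12 of the 18 enzyme genes. Without it 16 of 18 enzyme genes were negative again, with a median of -0.11, as were 5 of 12 peroxins, with a median of 0.02. The sign of the peroxin median was not stable, at -0.02 with 8 of 12 negative under upper-quartile scaling and -0.02 with 6 negative without siPOLR1F replicate 2. A sum is weighted to the abundant genes, and no test of the difference between enzymes and peroxins was made. In the broader list below, genes of assembly and the membrane leaned negative too, with 14 of 18 negative and a median of -0.07. The other 26 genes of that list had 19 negative and a median of -0.08.

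**Figure D3:**
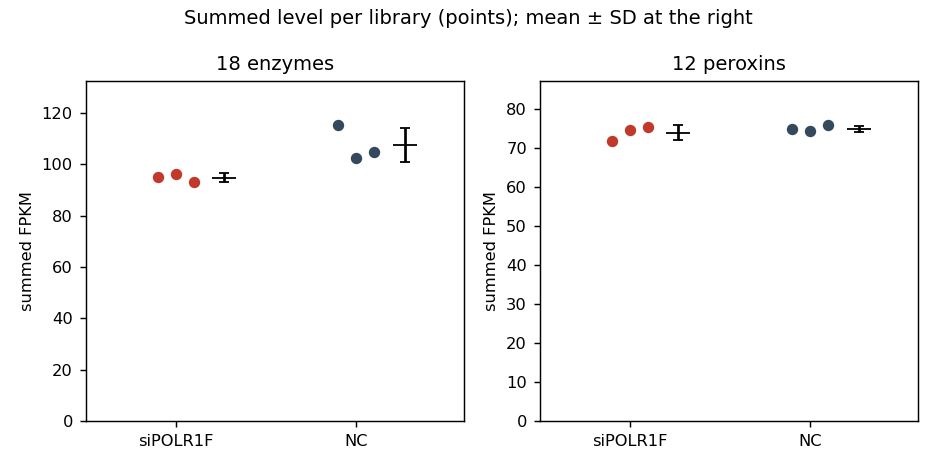
Summed FPKM of the 18 enzyme genes (left) and the 12 peroxins (right) in each library, with the mean ± SD of 3 libraries; both axes start at 0. The enzyme sums of siPOLR1F (93.1 to 96.4) lie below those of NC (103 to 115), while the peroxin sums overlap.

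The levels of the genes relative to each other, which are not the comparison the genes were proposed from, depended on the length used. In NC cells the highest FPKM were those of GNPAT (14.4 ± 0.517), CAT (13.2 ± 0.719), FAR1 (12.3 ± 2.60), PEX14 (11.7 ± 0.772) and PEX19 (11.1 ± 0.150; SD, n = 3 each). AMACR was lowest, at 1.23 ± 0.287 FPKM (SD, n = 3). In 26 of the 31 pairs of neighbours in this order the ranges over the NC libraries overlapped, so that the order is coarse. Up to 1 factor shared by all genes, the deposited FPKM divides by a length close to that of all annotated exons joined, from which it deviated by 0.614% (median of 10550 genes). Some of the genes departed from this. For HSD17B4 the divisor came to 24904 bases, above the 10664 bases of its joined exons and 9.28 times the length of its principal transcript. For AGPS it was 15210 bases against 8965 bases of joined exons, and for FAR2 13710 against 5411.

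Counts divided by the length of 1 principal transcript in kilobases, and scaled to the library total as in CPM, gave another order. HSD17B4 came first at 45.6 ± 2.55 in NC (SD, n = 3), against rank 19 by FPKM. SCP2 was second at 27.8, against rank 8, and ACOT8 was next at 23.4, against rank 14. HSD17B4 was apart from SCP2, and SCP2 from ACOT8, in every NC library, while 25 of the 31 pairs of neighbours overlapped. On this scale HSD17B4 had 34.7, 37.0 and 36.1 in siPOLR1F, against 48.5, 44.2 and 44.1 in NC. The change of length scale moves levels between genes and leaves the fold change of each gene as it was.

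**Figure D4:**
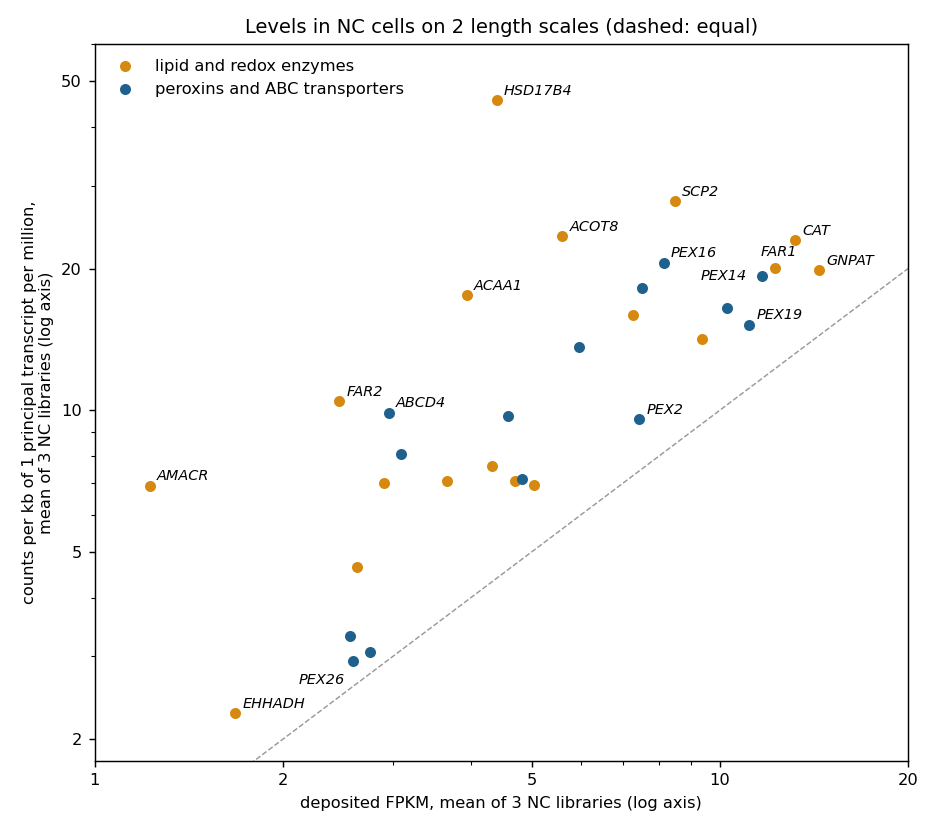
Mean level of the 32 genes in 3 NC libraries as deposited FPKM (x axis, log) and as CPM per kilobase of 1 principal transcript (y axis, log); orange points are enzymes, blue points peroxins and ABC transporters, and the dashed line marks equal values. HSD17B4 ranks 19 on the x axis and first on the y axis.

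Of the 32 genes, 26 had an entry in the RefSeq promoter table of GRCh38.p14, and 7 motifs were searched on both strands from 250 bases before to 50 after the start. The GC box GGGCGG was in 18 of the 26, against 44.6% of 27305 promoters, and CCAAT in 11, against 35.7%. The letters AGGTCA repeated with 1 base between, a form of the element bound by PPAR receptors with RXR, was in none of the 26, against 0.022% of promoters. At so low a share a match among 26 was unlikely, so its absence says nothing about PPAR elements in these genes. Its half-site AGGTCA was in ABCD4 and AGPS (13.9% of promoters). CACGTG was in 3 of the 26 (7.43%), CCGGAAGT in 2 (4.44%) and the 10-base palindrome bound by NRF1 in 1 (1.36%). A match is a run of letters and not a bound site. The 250 bases before the start of the 2 enzyme genes that were lower in siPOLR1F are shown, with each GC box on either strand in capitals.
HSD17B4 promoter (chr5:119452247-119452496, plus strand): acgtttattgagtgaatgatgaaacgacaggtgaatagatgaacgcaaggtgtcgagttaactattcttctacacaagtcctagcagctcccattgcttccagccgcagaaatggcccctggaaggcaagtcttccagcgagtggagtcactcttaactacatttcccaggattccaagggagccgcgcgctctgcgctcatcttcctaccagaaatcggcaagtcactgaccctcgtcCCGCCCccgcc
SCP2 promoter (chr1:52927026-52927275, plus strand): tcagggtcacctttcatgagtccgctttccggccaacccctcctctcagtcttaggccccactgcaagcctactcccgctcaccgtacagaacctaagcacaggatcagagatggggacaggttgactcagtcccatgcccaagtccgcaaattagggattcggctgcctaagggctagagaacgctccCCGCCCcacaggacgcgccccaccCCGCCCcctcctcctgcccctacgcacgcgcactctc
HSD17B4 holds 1 GC box and SCP2 holds 2 in these stretches, all on the minus strand.

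Of the other genes that carry the same pathway term, 31 of 46 were tested and 24 were negative, with a median of -0.13, the same as that of the 32. By edgeR none of the 31 was higher (1 at an unadjusted p below 0.05) and 5 were lower, among them MPV17, IDH1, IDH2 and MVK. DESeq2 called 1 higher and 6 lower. Only 1 was lower by edgeR without siPOLR1F replicate 1, siPOLR1F replicate 3 or NC replicate 3, and 2 without siPOLR1F replicate 2. This list was taken from the table after the values had been seen, so nothing is read from its likeness to the 32. Over all tested genes by edgeR, 10.3% were higher, 6.94% lower and 52.5% negative. These shares are the background of this list and of those below.

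A broader list of 44 tested genes linked to peroxisomes, outside the 32, had 3 higher, 6 lower and 33 negative. Among its 18 genes of assembly and the membrane, 3 were lower and 14 were negative, with a median of -0.07. MPV17 (-0.27), now placed in the mitochondrial inner membrane, had 5.73, 5.39 and 5.87 FPKM in siPOLR1F, against 6.46, 6.69 and 7.39 FPKM in NC. MAVS (-0.22), an antiviral adaptor on mitochondria and peroxisomes, had 7.65, 8.80 and 8.07 FPKM in siPOLR1F, against 9.23, 9.45 and 10.1 FPKM in NC. Both lay below NC in every siPOLR1F library, and each call was lost in 5 of the 6 fits that left out a library, with edgeR adjusted p-values from 0.0503 to 0.146.

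Among the 26 enzymes of that list, IDH1, which makes NADPH in the cytosol and peroxisome, had 10.5, 11.9 and 12.0 FPKM in siPOLR1F, against 17.1, 16.2 and 18.4 FPKM in NC. The difference of -0.58 on the log2 scale (SE 0.07, edgeR adjusted p = 0.00181) passed whichever library was left out. IDH2 (-0.51), the mitochondrial form, was lost without siPOLR1F replicate 1, siPOLR1F replicate 3 or NC replicate 3 (edgeR adjusted p from 0.0716 to 0.0734). MVK (-0.39), mevalonate kinase of the sterol pathway, was lost without any 1 siPOLR1F library or NC replicate 3 (edgeR adjusted p from 0.0576 to 0.0801). HSDL2, a dehydrogenase-like protein of peroxisomes and mitochondria, had 28.5, 30.1 and 28.6 FPKM in siPOLR1F, against 19.4, 16.9 and 17.3 FPKM in NC (log2 fold change 0.71, edgeR adjusted p = 4.93e-04). SLC27A4, a fatty acid transport protein (0.64), and LONP2, the peroxisomal Lon protease (0.28), were higher too, and LONP2 was lost without siPOLR1F replicate 3 (edgeR adjusted p = 0.0584). The genes of this broader list, not all of them confined to the peroxisome, thus held both directions. The changes of HSDL2, SLC27A4, IDH1 and IDH2 were larger than that of PEX2, the largest of the 32.

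PPAR receptors, which pair with RXR and are known to drive peroxisomal beta-oxidation genes in rodent liver, were looked at with their coactivators and other targets. Of 12 tested genes 5 were higher and none of the 12 lower by edgeR or DESeq2 (1 was lower at an unadjusted p below 0.05), with a median of 0.27. With upper-quartile scaling, and without siPOLR1F replicate 1, siPOLR1F replicate 3 or NC replicate 1, 3 were higher. With no filter on low values, 2 were higher and 1 lower of 21 genes. PPARGC1B, a coactivator, had 1.33, 1.17 and 1.46 FPKM in siPOLR1F, against 0.604, 0.822 and 0.694 FPKM in NC (log2 fold change 0.91, edgeR adjusted p = 0.00373). PPARG had 2.48, 2.61 and 2.68 FPKM in siPOLR1F, against 1.61, 1.67 and 2.09 FPKM in NC (log2 fold change 0.54, edgeR adjusted p = 0.0101). RXRA (0.35) was higher too, and these 3 genes passed whichever library was left out. RXRB (0.28) was lost in 5 of the fits that left out a library (edgeR adjusted p from 0.0574 to 0.118) and MED1 (0.25) in 4 (0.0794 to 0.122). The 5 higher genes are receptors and coactivators, but not all such genes were higher. PPARA (0.38, edgeR adjusted p = 0.113) passed only without NC replicate 3, and PPARD (-0.03) did not pass. The coactivator PPARGC1A fell below the filter on low values. It averaged 0.0746 FPKM in siPOLR1F and 0.176 FPKM in NC, with every siPOLR1F library below NC. Of the targets only FABP1, ACADM, CPT1A and CPT2 were tested in the fit reported, and none of these passed. Other targets, among them PDK4, ANGPTL4 and PLIN2, fell below the filter on low values, so that fit does not show whether the targets responded.

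Of 25 tested genes of mitochondrial beta-oxidation, the parallel route for shorter chains, 1 was higher and 2 were lower, with a median of 0.02. ECI1, an enoyl-CoA isomerase, was higher (0.34), and lost without siPOLR1F replicate 3 or NC replicate 3 (edgeR adjusted p = 0.0502 at the lowest and 0.0717 at the highest). ACAD11 (-0.48) and ACADSB (-0.36), acyl-CoA dehydrogenases, were lower, and each was lost in 5 of the 6 fits that left out a library (edgeR adjusted p from 0.0551 to 0.151). No test compared the mitochondrial with the peroxisomal genes.

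**Figure D5:**
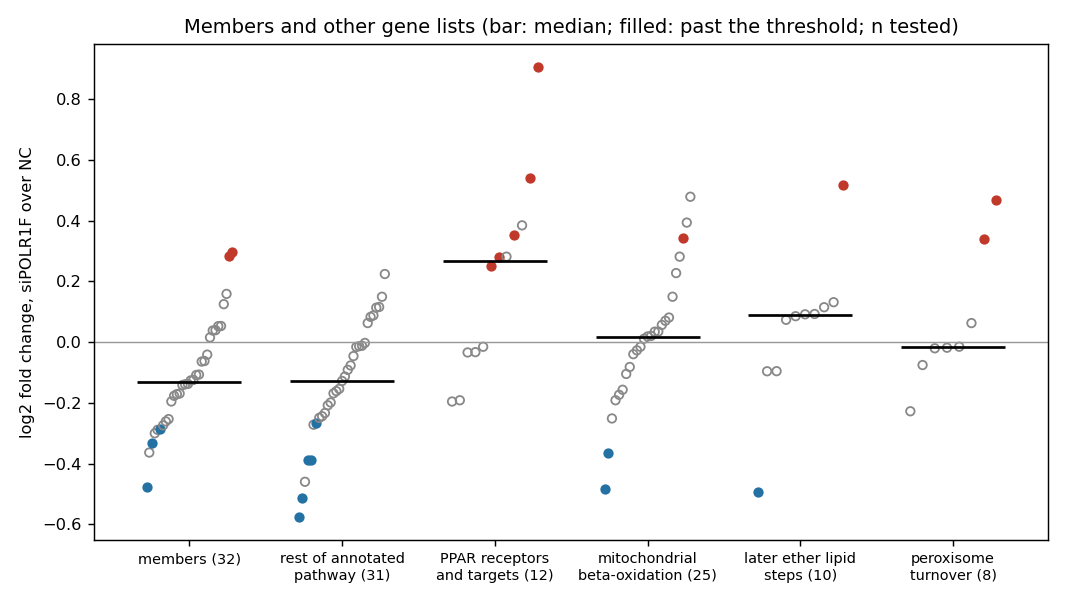
Log2 fold change, siPOLR1F over NC, of the tested genes of 6 lists (points in rising order; filled points passed the threshold, blue lower and red higher in siPOLR1F; bars are medians; the number tested is given under each list). The medians are -0.13 for the 32 genes and for the rest of the annotated pathway, 0.27 for the PPAR list and 0.02 for mitochondrial beta-oxidation.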

How the data were processed

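The read processing named in the submitters' processing notes is fastp, HISAT2 and StringTie on GRCh38 (hg38). No source used here gives versions, annotation release or strand setting. Per the labels, reads were paired. The authors deposited 1 table of 33539 genes with whole-number counts and FPKM per library. FPKM lengths were checked against GENCODE 29, the source of transcripts and coding ends.

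The deposited counts were fitted with edgeR 4.0.16 (TMM, glmQLFit and glmQLFTest, two-sided; R 4.3.3), keeping genes whose mean FPKM reached 0.5, which left 13564 genes with 99.4% of the counts. P-values were adjusted by Benjamini-Hochberg over all of them. SE is the absolute log2 fold change divided by the square root of F. In a simulation of siPOLR1F against NC over 13564 genes, the test found 88% of genes changed by -1 (log2), 62% by -0.5, 56% by 0.5 and 98% by 1, with 4 false among 156 calls.

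Alternatives were DESeq2 1.42.0, limma 3.58.1 on log2(FPKM + 1) and log2(FPKM + 0.1), other scalings and filters, a replicate block and leaving out each library. The members, the gene lists and the tests were chosen with earlier results of these data known. Values of every library are given for members past the threshold, for the 2 most abundant of each role and for those whose call turned on 1 library. Of other lists up to 4 genes with the smallest adjusted p are named; IDH2, MVK and RXRB were named after their values were seen, and some genes that the rule names are left out here. No 2 libraries of a group were within sampling noise of each other.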

Additional observations from a re-analysis of the deposited data

How the results depend on the processing

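PEX2 and HSD17B4 passed wherever they were fitted. Of the members 2 were higher in the fit reported, 1 with upper-quartile factors, 1 with a mean FPKM filter of 5, 1 with the replicate block, 0 with no filter on low values, and 0 to 1 with a library left out; at an unadjusted edgeR p below 0.05 there were 3 with no filter and 2 with each library left out, and DESeq2 called 2. Over all genes, 1475 were lower with upper-quartile factors, and 663 were higher and 313 lower with no filter. Leaving out a library gave 730 to 1326 higher and 423 to 841 lower genes. Of the broader list linked to peroxisomes, 6 were higher with DESeq2, 2 lower with no filter, and 1 to 4 lower with a library left out. Directions turned only for 5 members near 0. With upper-quartile factors PEX5 was at -0.012, PEX19 at -0.010 and PEX11A at -0.034. With a library left out ABCD3 lay between -0.10 and 0.042, PEX10 between -0.12 and 0.019 and PEX11A between -0.051 and 0.097. The cause was not tested.

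Same-numbered libraries correlated in their deviations by 0.293, 0.0157 and 0.274, and differently numbered ones by -0.277 to 0.00614. Deviations from a group mean cancel out within the group, so these values are not independent of each other. Libraries numbered 1 differed from those numbered 3 in a like way in both groups, which is 1 pattern. Those numbered 2 showed no such likeness. The fit reported took no pairs, so its p-values leave out any such pairing. With the number as a block, 1517 genes were higher and 1125 lower. Of the members 1 was higher and 4 lower, as FAR1 passed (edgeR adjusted p = 0.0117) and ACOX2 did not.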

Other observations

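Later steps of ether lipid synthesis, which take place in the endoplasmic reticulum, held both directions, with 1 of 10 tested genes higher and 1 lower. LPCAT1, an acyltransferase of lysophospholipids, had 17.4, 18.3 and 19.8 FPKM in siPOLR1F, against 12.3, 13.8 and 12.9 FPKM in NC (0.52 on the log2 scale, edgeR adjusted p = 0.00181). PLPP3, a phosphatase of lipid phosphates, had 7.23, 5.76 and 6.77 FPKM in siPOLR1F, against 8.82, 10.1 and 9.07 FPKM in NC (log2 fold change -0.49, edgeR adjusted p = 0.0121). Neither group overlapped the other in these genes, and both calls held whichever library was left out.

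Of 8 genes linked to the turnover of peroxisomes, 2 were higher and none of the 8 lower by edgeR or DESeq2, nor at an unadjusted p below 0.05. SQSTM1, the autophagy receptor p62, had 49.5, 48.7 and 48.5 FPKM in siPOLR1F, against 31.8, 38.7 and 36.1 FPKM in NC (log2 fold change 0.47, edgeR adjusted p = 0.0035). HSPA9, a mitochondrial chaperone, was 0.34 higher on the log2 scale (edgeR adjusted p = 0.00741). Both proteins act in many other processes.

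The heptamers TCGGAGA and CCGACTT were picked earlier from these same fold changes. TCGGAGA was in the coding sequence of 1 of the 32 genes, PEX5 (7.9% of 11235 tested genes), and in none of their 3′ UTRs (1.84%). CCGACTT was in the 3′ UTR of PEX26 (1.7% of tested genes) and in the coding sequence of ACOX2 (4.95%). PEX2, HSD17B4 and SCP2 held neither heptamer, and nothing is read from these counts.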
